A study of Mus musculus with 7 samples.

Results

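The peroxisome proliferator-activated receptors PPARα (*Ppara*) and PPARδ (*Ppard*), together with *Ucp2*, *Ucp3*, *Pdk4*, *Acsl1* and *Angptl4*, 5 genes known as PPAR targets in muscle, were examined for occupancy by RNA polymerase II (RNAP2), BMAL1 and REV-ERBα. The genes were chosen by symbol and are 7 of the 21951 protein-coding genes of the mouse annotation. For each gene, every ChIP-seq peak that overlapped the gene body or lay within 10 kb of an annotated transcription start site (TSS) was collected, and the nearest peak was taken where a list held none. The windows of the 7 genes spanned 22959 to 80547 bp. Those of *Ucp3* and *Ucp2*, which are neighbors on chromosome 7 with 6904 bp between the gene bodies, shared 3096 bp and 1 peak.

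PPARs are nuclear receptors that are activated by fatty acids and their derivatives and that bind DNA as heterodimers with retinoid X receptors, at direct repeats of a short half-site separated by 1 base. In muscle they are known for switching on genes of fatty acid uptake, activation and oxidation, and for sparing glucose during fasting and exercise. BMAL1 is the activator of the core clock and binds E-boxes, whereas REV-ERBα is a clock-controlled repressor that binds the same kind of half-site as the PPARs, either alone within a ROR element or as a direct repeat separated by 2 bases.

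ChIP-seq was performed on gastrocnemius muscles of wild-type C57BL/6J male mice, aged 5 months and kept on a cycle of light and dark with standard chow. BMAL1 and RNAP2 were mapped at zeitgeber time (ZT) 4 and REV-ERBα at ZT 8, with 2 replicates per factor that the study describes as biological, and input DNA as the control for peak calling. Each list thus comes from whole muscle, so fewer nuclei of one cell type and weaker binding per nucleus cannot be told apart, and factor and time of day cannot be told apart between REV-ERBα and the other factors. No sample lacked BMAL1 or REV-ERBα, and with 2 replicates per factor no exact test between groups could fall under the usual threshold, so counts and values are given without a test.

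The lists differed in length between replicates, which touches every count below. RNAP2 had 87870 peaks in replicate 1 and 168821 in replicate 2, BMAL1 had 34737 and 177669, and REV-ERBα had 28881 and 29934. Peaks were called at a lenient p-value cutoff of 0.05, and a −log10 q (the p-value corrected for multiple testing, on a log scale) of at least 1.3 was reached by 12.5% and 2.15% of RNAP2 peaks, 0.265% and 0.0203% of BMAL1 peaks, and 1.12% and 1.41% of REV-ERBα peaks. The −log10 p of a peak measures how far its reads exceed the input and is not an amount of bound protein. As a check of the tissue, an RNAP2 region over a TSS in both replicates was found at 7 of 7 genes of muscle fibers (*Ckm*, *Acta1*, *Myh4*, *Mylpf*, *Tnnt3*, *Mb* and *Ryr1*), with a lower −log10 p of 1.98 to 39.9. None of 4 adipocyte genes, 3 endothelial genes or 3 macrophage genes, among them *Adipoq*, *Pecam1* and *Adgre1*, had such a region. These markers were chosen after other values had been seen, and *Fabp4*, a fatty acid binding protein of adipocytes and capillary endothelium, went the other way, with an RNAP2 region whose summits lay 31 and 20 bp from its TSS (−log10 p of 11.6 and 2.60). The share of RNAP2 signal that came from such cells was not tested.

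Across the 7 genes, RNAP2 was found everywhere, BMAL1 at 1 gene and REV-ERBα at none when a region present in both replicates was required. A region is a set of peaks that overlap by at least 1 bp, here with a peak of each replicate. An RNAP2 region was present in the window of 7 of 7 genes, against 41.1% of all protein-coding genes, and an RNAP2 region that held a TSS was likewise present at 7 of 7, against 28.3%. A BMAL1 region was present at *Acsl1* alone, 1 of 7 genes against 6.81% of all genes. No REV-ERBα region was present at any of the 7 genes, against 4.44% of all genes. Sites listed in 3 or more of the 4 lists of the clock factors (BMAL1 and REV-ERBα) occurred at 0 of 7 genes, against 1.62%. Of the 6215 genes whose TSS lay in an RNAP2 region, 9.86% had a BMAL1 region and 8.87% a REV-ERBα region in both replicates. With 7 genes, each of these shares corresponds to fewer than 1 gene, so the counts for BMAL1 and REV-ERBα lie near the background.

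**Figure D1:**
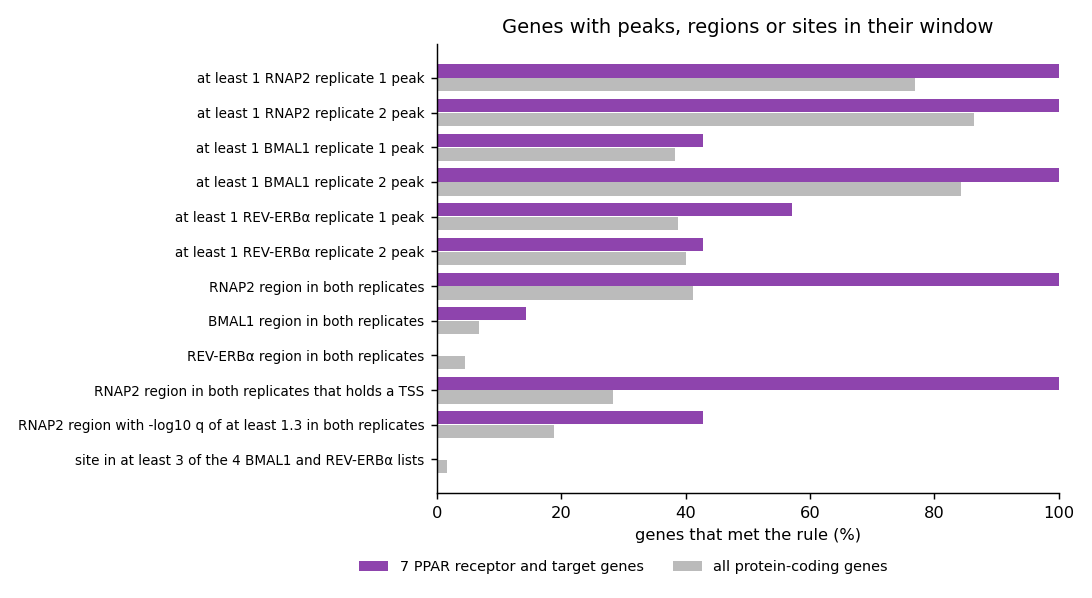
Share of genes, in percent, that met each rule on peaks, regions in both replicates or sites, for the 7 PPAR receptor and target genes (purple) and all 21951 protein-coding genes (gray). The 7 genes exceed the background for RNAP2 regions, and lie near it for the BMAL1 and REV-ERBα rules.

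Single lists gave larger counts than regions in both replicates for BMAL1 and REV-ERBα. At least 1 RNAP2 peak was listed at 7 of 7 genes in replicate 1 (76.9% of all genes) and at 7 of 7 in replicate 2 (86.4%). BMAL1 peaks were listed at 3 of 7 genes in replicate 1 (38.2% of all genes) and at 7 of 7 in replicate 2 (84.3%). REV-ERBα peaks were listed at 4 of 7 genes in replicate 1 (38.7% of all genes) and at 3 of 7 in replicate 2 (40.1%). The BMAL1 and REV-ERBα counts were therefore close to what all protein-coding genes gave in the same list. Of 30 BMAL1 peaks of replicate 2 in the 7 windows, 11 had the commonest values of that list, 1.87 on the −log10 p scale with a 2.02-fold enrichment, which 29.4% of its peaks share.

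**Figure D2:**
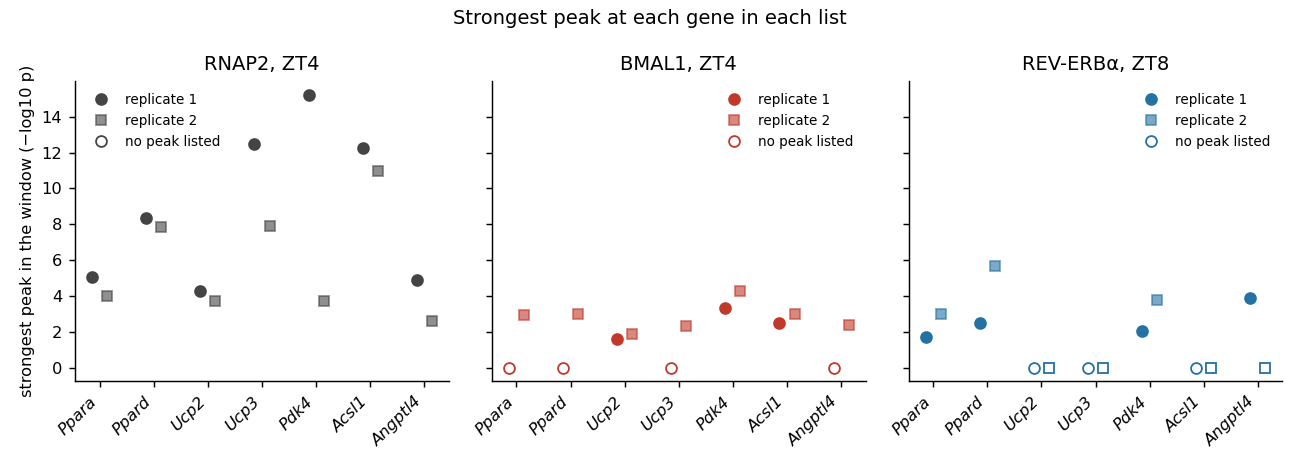
Strongest peak (−log10 p) in the window of each gene in each of the 6 lists; circles are replicate 1, squares replicate 2, and open symbols at 0 mark a list with no peak in the window. RNAP2 peaks reach 15.2 and are listed for all 7 genes in both replicates, whereas no REV-ERBα peak is listed at *Ucp2*, *Ucp3* or *Acsl1*.

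At the receptors, RNAP2 occupied the start of both genes. For *Ppara* (ENSMUSG00000022383, GRCm38 chr15:85734983-85802819, plus strand), which encodes the receptor best known for driving fatty acid oxidation, the RNAP2 region at chr15:85734850-85735767 reached 5.07 (replicate 1) and 3.97 (replicate 2) on the −log10 p scale. For *Ppard* (ENSMUSG00000002250, chr17:28232700-28301474, plus strand), the form known for its high abundance in muscle, the region at chr17:28232584-28233102 had values of 8.34 and 7.85. Both replicates were thus higher at *Ppard* than at *Ppara*, and the values of the receptors did not overlap. *Ppard* reached a −log10 q of 1.3 in both replicates and *Ppara* did not, with 0.592 in replicate 2.

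*Ppard* held 2 further RNAP2 regions. One lay 8784 and 8753 bp upstream of its 5′ end (−log10 p of 4.79 and 2.60), but its summit was nearer to the TSS of *Def6*, the neighboring gene, at 6883 bp. The other lay in an intron, 37105 and 37077 bp downstream of the 5′ end, and had values of 2.45 and 2.42.

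REV-ERBα peaks at the receptors did not recur between replicates. At *Ppara*, replicate 1 listed 1 peak (−log10 p of 1.73) at chr15:85735293-85735712, over the RNAP2 region at the promoter, and replicate 2 listed 3 peaks (2.15 to 3.02) inside the gene, of which the nearest to the 5′ end was 5642 bp downstream of it. At *Ppard*, replicate 1 listed 1 intronic peak (2.50), 40095 bp downstream of the 5′ end, and replicate 2 listed 2. The stronger of these, at chr17:28236029-28236541 in an intron, 3502 bp downstream of the 5′ end, reached a −log10 p of 5.65, with 3.48-fold enrichment and a −log10 q of 1.302. It was the one REV-ERBα peak at the 7 genes that reached a −log10 q of 1.3, and 1.4% of the peaks of its list were at least as strong. Its replicate 1 counterpart was not listed. The sequence around its summit (chr17:28236052-28236351, plus strand, which is the strand of the gene) is shown because it is the strongest REV-ERBα peak at the 7 genes. Capitals mark the matches to CAGCTG, an E-box hexamer (CANNTG) other than the canonical CACGTG.

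Ppard REV-ERBα replicate 2 summit: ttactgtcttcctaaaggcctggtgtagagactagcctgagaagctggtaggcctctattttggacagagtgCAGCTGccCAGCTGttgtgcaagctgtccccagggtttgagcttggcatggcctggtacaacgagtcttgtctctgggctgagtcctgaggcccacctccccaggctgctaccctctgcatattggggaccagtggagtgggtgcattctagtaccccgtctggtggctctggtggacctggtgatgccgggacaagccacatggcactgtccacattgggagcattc

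The 2 copies of CAGCTG lay 78 and 70 bp upstream of the summit, and this hexamer was present in 17.5% of the 1263 REV-ERBα regions in both replicates, read over the same 300 bases. No half-site (AGGTCA or GGGTCA), ROR element, DR1 (AGGTCANAGGTCA) or DR2 (AGGTCANNAGGTCA) was found in this window, where 28.8% of the REV-ERBα regions hold a half-site and 0.317% a ROR element. Of all promoters, 27.5% held a half-site and 0.384% a ROR element, close to the shares of the REV-ERBα regions. Every motif named here was searched on both strands.

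BMAL1 peaks at the receptors came from replicate 2 alone. That list held 6 peaks at *Ppara* and 9 at *Ppard*, with −log10 p values of up to 2.92 and 2.98, and replicate 1 held none in either window. The nearest replicate 1 peak lay 19991 bp from a TSS of *Ppara* and 52026 bp from a TSS of *Ppard*. CACGTG, the canonical E-box, occurred within 150 bp of 1 of the 9 *Ppard* summits and of 0 of the 6 *Ppara* summits. Over the 2742 BMAL1 regions in both replicates, 3.14% held it, a lower share than among RNAP2 regions (6.99%) or all promoters (7.15%).

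*Ucp3* and *Ucp2* encode uncoupling proteins of the mitochondrial inner membrane, of which UCP3 is the form characteristic of skeletal muscle and brown fat. The pair had different RNAP2 values. At *Ucp3* (ENSMUSG00000032942, chr7:100472990-100486432, plus strand), the RNAP2 region at the start (chr7:100472716-100473571) reached 12.5 (replicate 1) and 7.92 (replicate 2) on the −log10 p scale, with −log10 q values of 8.66 and 4.03. At *Ucp2* (ENSMUSG00000033685, chr7:100493337-100502020, plus strand), the region at chr7:100493284-100493649 had values of 4.30 and 1.48, with −log10 q values of 1.24 and 0. Both replicates were higher at *Ucp3*, and the values did not overlap. A second *Ucp3* region lay in an intron, 1187 and 1054 bp downstream of the 5′ end, with values of 3.62 and 2.00.

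The *Ucp3* promoter (RefSeq, GRCm38, chr7:100472741-100472990, plus strand) lies wholly within this RNAP2 region, and it was the one promoter of 7 examined that held a half-site or a DR1 with up to 2 mismatched bases. It is shown with capitals for these matches and for CAGCTG.

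Ucp3 promoter: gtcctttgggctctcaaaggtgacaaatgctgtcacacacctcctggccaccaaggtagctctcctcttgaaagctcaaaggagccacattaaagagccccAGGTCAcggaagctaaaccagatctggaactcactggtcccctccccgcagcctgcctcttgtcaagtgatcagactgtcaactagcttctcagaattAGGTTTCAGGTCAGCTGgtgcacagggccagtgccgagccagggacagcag

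The DR1-like match, AGGTTTCAGGTCA, begins 51 bp upstream of the RefSeq start, differs from DR1 at 2 bases, and overlaps both a half-site and CAGCTG. A second half-site begins 149 bp upstream. Among all 32851 mouse promoters of the same 300 bases, 3.86% held a DR1 with up to 2 mismatches, 0.0396% an exact DR1, 27.5% a half-site and 16.3% CAGCTG. A match of letters is a description of the sequence and not a measured PPAR site.

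No REV-ERBα peak was listed in the window of *Ucp3* or *Ucp2* in either replicate. The nearest replicate 2 peak (−log10 p of 2.15) lay 17191 bp from a TSS of *Ucp3*, and the nearest replicate 1 peak (2.50) lay 86143 bp away. These peaks were also the nearest to *Ucp2*, at 37538 and 60791 bp. The nearest REV-ERBα region in both replicates was 635 kb from *Ucp3* and 610 kb from *Ucp2*, where the median over 21938 protein-coding genes was 651 kb.

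BMAL1 replicate 2 listed 3 peaks at *Ucp3* and 3 at *Ucp2*, of which 1 lies in both windows. Replicate 1 listed none at *Ucp3* and 1 at *Ucp2*, with a −log10 p of 1.58. The strongest of these BMAL1 peaks (2.35), at chr7:100465672-100466076, lay 6999 bp upstream of *Ucp3*, and its summit was 11 bp from that of an RNAP2 replicate 2 peak (3.18). Both summits were nearer to a TSS of *C2cd3*, at 584 and 595 bp, a gene named after these values were seen.

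The study designed ChIP-qPCR primers for an element at *Ucp3* and one at *Acsl1*, and each pair matched a single place on its chromosome. By ChIP-qPCR the paper reports REV-ERBα binding near both genes, strongly reduced in muscle lacking BMAL1. Expression of both genes was lower after REV-ERBα was reintroduced into such muscle, according to the paper. The paper also describes a REV-ERBα peak near a known PPAR element of *Acsl1*. The *Ucp3* amplicon spans chr7:100465641-100465736 (GRCm38), 7302 bp upstream of the 5′ end, and the *Acsl1* amplicon spans chr8:46470648-46470770, 328 bp upstream of the 5′ end. They are shown on the plus strand because they fix the sites that were assayed, with the primer sites in capitals.

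Ucp3 amplicon: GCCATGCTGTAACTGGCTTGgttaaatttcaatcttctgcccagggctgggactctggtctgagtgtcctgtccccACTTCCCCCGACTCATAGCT

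Acsl1 amplicon: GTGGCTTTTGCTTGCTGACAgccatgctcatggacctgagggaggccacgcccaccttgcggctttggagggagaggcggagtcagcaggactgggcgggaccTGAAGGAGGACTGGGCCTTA

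The *Ucp3* amplicon overlapped the BMAL1 replicate 2 peak just described, whose summit was 584 bp from a TSS of *C2cd3* and farther from *Ucp3*. The distance from the amplicon itself to *C2cd3* was not measured. The *Ucp3* amplicon also lay 139 bp from an RNAP2 replicate 2 peak. The nearest REV-ERBα peaks were 93401 bp away in replicate 1 and 9842 bp away in replicate 2. The *Acsl1* amplicon lay 143 and 127 bp from the RNAP2 peaks at the *Acsl1* start and 1428 bp from a BMAL1 replicate 2 peak (−log10 p of 2.98), and the nearest REV-ERBα peaks were 28856 and 78165 bp away. The lists used here thus held no REV-ERBα peak at either amplicon, unlike the binding that the paper reports by ChIP-qPCR. Nor did they hold one in the window of *Acsl1*, unlike the peak that the paper describes at the promoter of that gene. The paper also names *Ucp3* among the muscle REV-ERBα loci it uncovered, and no REV-ERBα peak was listed in the *Ucp3* window. The reason for these differences was not tested. Neither amplicon held a half-site, a ROR element, DR1, DR2, CACGTG or CAGCTG, mismatched DR1 and DR2 included. Of the stretches of equal length just before the starts of all promoters, 9.94% (96 bases) and 12.4% (123 bases) held a half-site, 0.155% and 0.189% a ROR element, and 3.06% and 3.74% CACGTG.

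*Pdk4* (ENSMUSG00000019577, chr6:5483351-5496309, minus strand) encodes a kinase that inhibits pyruvate dehydrogenase and thereby spares glucose. It held the strongest RNAP2 peak of the 7 genes and the largest difference between replicates. The region at its start, chr6:5495811-5496511, reached 15.2 (replicate 1) and 3.39 (replicate 2) on the −log10 p scale, with −log10 q values of 11.2 and 0.170. By the higher replicate *Pdk4* was first among the 7 genes, and by the lower replicate it stood behind *Acsl1*, *Ucp3*, *Ppard* and *Ppara*.

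*Pdk4* was also the gene with the densest peaks of the clock factors, none of them shared by replicates. BMAL1 replicate 1 listed 1 intronic peak at chr6:5487944-5488796 (−log10 p of 3.31), and replicate 2 listed 4, of which the strongest was at chr6:5490409-5491143 (4.25). The replicate 1 peak ended 20 bp short of overlapping the nearest replicate 2 peak, at chr6:5487646-5487924 (2.40). The strongest replicate 2 peak was among the top 1.42% of its list, and the replicate 1 peak among the top 12.9%. REV-ERBα replicate 1 listed 1 intronic peak at chr6:5489470-5490056 (2.02) and replicate 2 another at chr6:5485675-5486122 (3.75), 6272 and 10375 bp downstream of the 5′ end. All of these lay within introns except 1 BMAL1 replicate 2 peak, 9010 bp upstream. By its strongest peak, *Pdk4* was among the top 8.78% and 6.54% of genes in the BMAL1 lists and the top 33.3% and 9.05% in the REV-ERBα lists. Every BMAL1 and REV-ERBα peak at *Pdk4* had a −log10 q of 0.

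*Acsl1* (ENSMUSG00000018796, chr8:46471037-46536051, plus strand) encodes an acyl-CoA synthetase that activates long-chain fatty acids, and it was the one gene of the 7 with a BMAL1 region in both replicates. The region spans chr8:46522359-46523466, in an intron, and its summits lay 51486 and 52389 bp downstream of the 5′ end. On the −log10 p scale it reached 2.30 (replicate 1) and 2.98 (replicate 2), with fold enrichments of 2.12 and 2.59 and a −log10 q of 0 in both. The peaks overlapped by 418 bp, but their summits were 903 bp apart. Of the 2742 BMAL1 regions, 30.3% were at least as strong by the lower replicate. The sequence around the replicate 1 summit (chr8:46522373-46522672, plus strand) is shown because this region alone was found in both BMAL1 lists, with capitals for CAGCTG.

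Acsl1 BMAL1 replicate 1 summit: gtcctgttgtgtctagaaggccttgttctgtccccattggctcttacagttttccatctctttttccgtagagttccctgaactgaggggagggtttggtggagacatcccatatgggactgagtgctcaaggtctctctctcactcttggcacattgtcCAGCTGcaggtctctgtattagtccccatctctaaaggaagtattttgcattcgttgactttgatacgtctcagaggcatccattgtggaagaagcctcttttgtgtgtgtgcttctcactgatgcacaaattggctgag

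CAGCTG began 10 bp downstream of this summit and is present in 10.4% of BMAL1 regions, and no CACGTG was found within 150 bp of either summit.

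RNAP2 at the start of *Acsl1* (chr8:46470897-46471647) had a −log10 p of 12.3 and 11.0, the highest of the 7 genes by the lower replicate. A second RNAP2 region lay in an intron, 17263 and 17171 bp downstream of the 5′ end, with values of 3.15 and 1.99. No REV-ERBα peak was listed in the window, and the nearest were 29245 bp (replicate 1) and 66490 bp (replicate 2) from an annotated TSS, with −log10 p values of 3.04 and 2.64. The nearest REV-ERBα region in both replicates was 265 kb away.

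*Angptl4* (ENSMUSG00000002289, chr17:33773750-33781830, minus strand) encodes a secreted inhibitor of lipoprotein lipase. Its RNAP2 region at chr17:33781208-33781671 reached 4.88 (replicate 1) and 1.86 (replicate 2) on the −log10 p scale, and replicate 1 alone reached a −log10 q of 1.3 (1.72). REV-ERBα replicate 1 listed 1 peak (3.88), 5266 bp upstream of the 5′ end, which was among the top 5.8% of its list. Replicate 2 listed none, and its nearest peak was 67660 bp from a TSS. This replicate 1 peak was the one REV-ERBα summit of 10 at the 7 genes with a DR2 of up to 2 mismatches. Of REV-ERBα regions in both replicates, a set unlike this single-list peak, 2.85% held one. Whether the match lies in a repeated sequence was not tested. The sequence around this REV-ERBα summit (chr17:33786946-33787245, minus strand, which is the strand of the gene) is shown with the match in capitals.

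Angptl4 REV-ERBα replicate 1 summit: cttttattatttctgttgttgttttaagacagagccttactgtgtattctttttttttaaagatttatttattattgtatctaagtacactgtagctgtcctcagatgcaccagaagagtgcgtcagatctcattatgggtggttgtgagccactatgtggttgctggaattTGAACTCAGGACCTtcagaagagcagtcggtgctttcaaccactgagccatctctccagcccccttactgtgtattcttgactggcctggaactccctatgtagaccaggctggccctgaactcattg

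The match reads AGGTCCTGAGTTCA on the opposite strand, has 2 mismatches and begins 23 bp downstream of the summit. BMAL1 replicate 2 listed a peak (−log10 p of 2.40) ending 810 bp from this REV-ERBα peak on the side of the gene, and CACGTG was found 118 bp from its summit. No BMAL1 replicate 1 peak was listed.

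**Figure D3:**
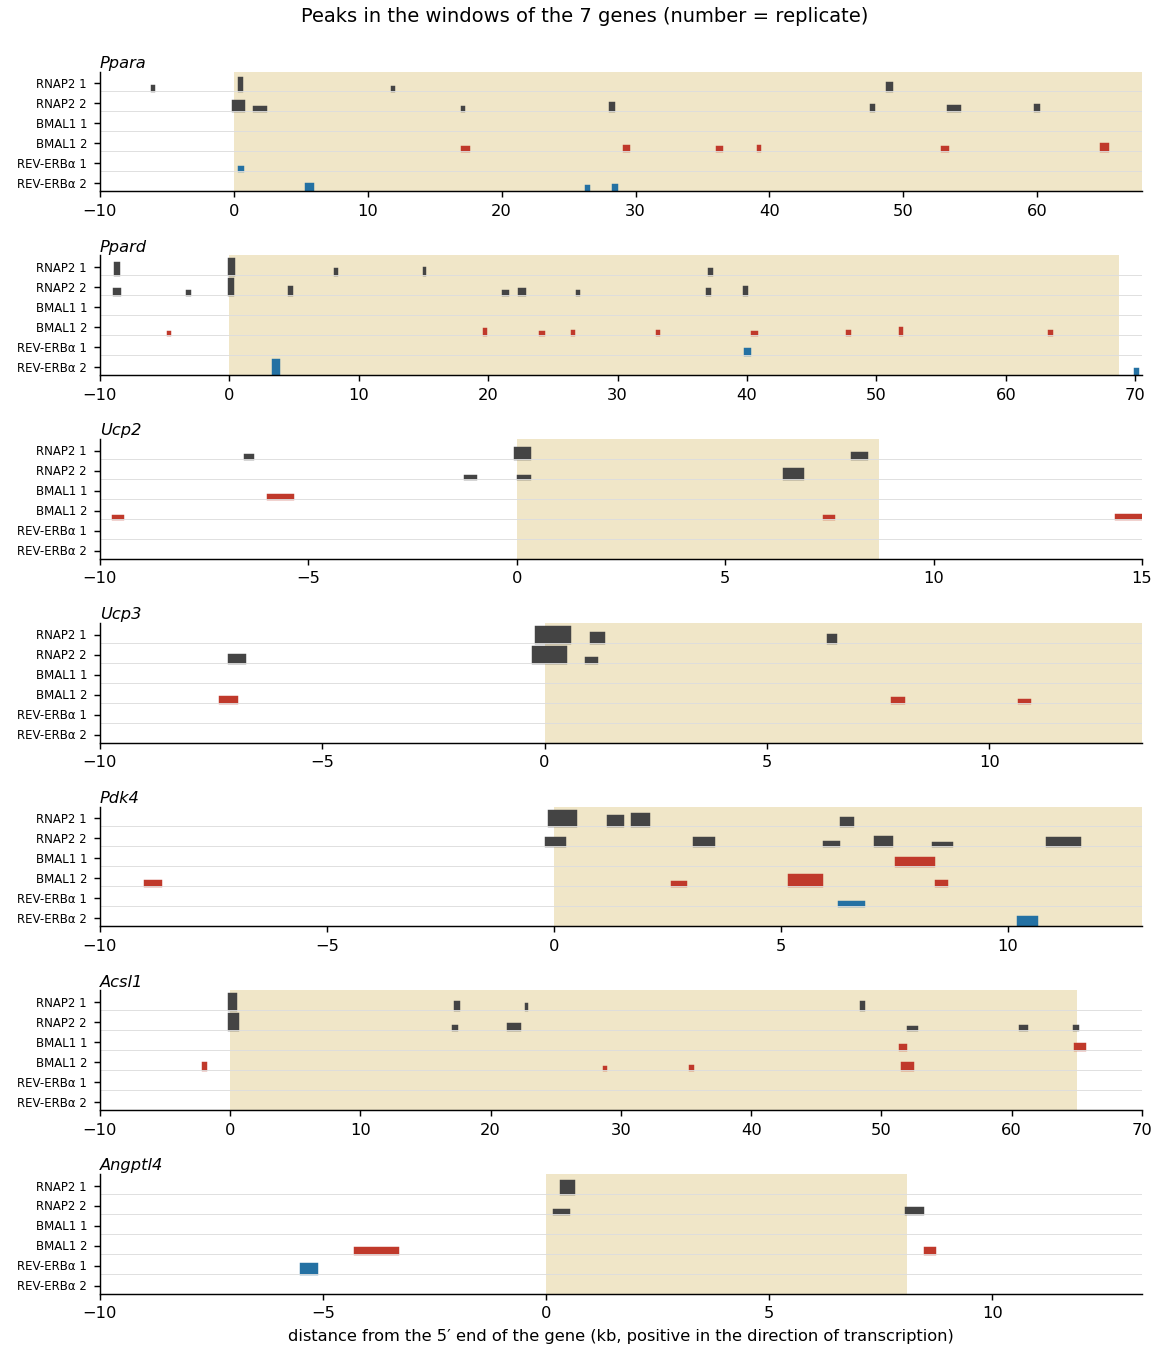
Peaks of the 6 lists in the window of each gene, against the distance from the 5′ end of the gene in kb. Shading is the gene body, each bar has the width of its peak, and its height is the −log10 p, full at 6 or more; RNAP2 bars stack over the start in both replicates, whereas BMAL1 and REV-ERBα bars of replicates 1 and 2 overlap at one place, the BMAL1 region of *Acsl1*.

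Compared with each other at their starts, the 7 genes fell into an upper and a lower group of RNAP2 values, with *Pdk4* spanning both. The values of *Acsl1* (11.0 to 12.3), *Ucp3* (7.92 to 12.5) and *Ppard* (7.85 to 8.34) lay wholly above those of *Ppara* (3.97 to 5.07), *Angptl4* (1.86 to 4.88) and *Ucp2* (1.48 to 4.30). Within the upper group *Acsl1* overlapped *Ucp3*, and *Ucp3* overlapped *Ppard*. Within the lower group all 3 overlapped. RNAP2 regions that reached a −log10 q of 1.3 in each replicate were present at 3 of 7 genes (*Ppard*, *Ucp3* and *Acsl1*), against 18.9% of all genes. By the lower replicate, 12.4% of the 5741 RNAP2 regions over a protein-coding TSS were at least as strong as that of *Acsl1*, 24.2% as that of *Ucp3* and 24.5% as that of *Ppard*. The shares were 62.5% for *Ppara*, 70% for *Pdk4*, 96.6% for *Angptl4* and 98.8% for *Ucp2*. Replicate 1 was higher than replicate 2 at 7 of 7 genes, and at 80.8% of all regions over a TSS.

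**Figure D4:**
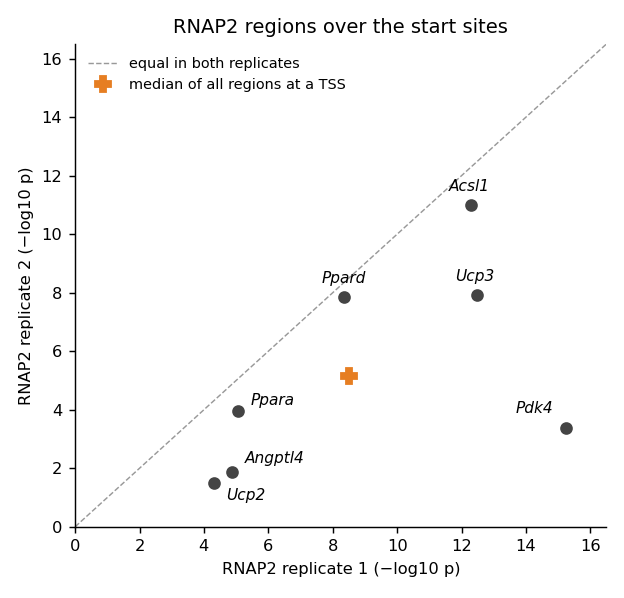
RNAP2 regions over the start sites of the 7 genes, with the −log10 p of replicate 1 on the x axis and of replicate 2 on the y axis; the cross is the median of all 5741 regions over a TSS (8.49 and 5.16) and the dashed line marks equal values. All 7 genes lie under the line, and *Pdk4* (15.2 and 3.39) lies farthest from it.

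Promoters of 6 of the 7 genes were matched in RefSeq, with 2 for *Acsl1*, and no promoter sequence was used for *Angptl4*. Of these 7 promoters, 4 held CAGCTG (*Ppard*, *Ucp2*, *Ucp3* and the downstream promoter of *Acsl1*), against 16.3% of all promoters. No CACGTG (7.15% of all promoters), ROR element (0.384%), exact DR1 (0.0396%) or exact DR2 (0.00913%) was found in any of them. Around the summits of the 11 RNAP2 regions at the 7 genes, 6 held a half-site and 1 (*Angptl4*) held CACGTG, which 25.5% and 6.99% of all RNAP2 regions hold. The 6 with a half-site came from *Ppard*, *Ucp3* and *Pdk4* alone, and included the upstream *Ppard* region whose summit was nearer to *Def6*. No enrichment across the 7 genes is read from them. Of the 10 REV-ERBα summits 6 held a half-site, and none held a ROR element. REV-ERBα regions in both replicates held them in 28.8% and 0.317% of cases. That set is unlike the 10 summits, which are peaks listed in 1 replicate alone, so no enrichment is read from the count.

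RNAP2 was also the most widespread factor at other genes of the pathway. In a list of 38 genes of PPAR partners, cofactors and targets, 29 (76.3%) had an RNAP2 region in both replicates, 2 (5.26%) a BMAL1 region and 2 (5.26%) a REV-ERBα region, against 41.1%, 6.81% and 4.44% of all protein-coding genes. RNAP2 regions were present at 3 of 4 receptors and partners, the exception being *Pparg*, the adipocyte form, at 6 of 6 cofactors and at 20 of 28 targets. REV-ERBα regions were present in the windows of *Hdac3*, a deacetylase that acts with the corepressors of REV-ERBα (5.99 and 6.59), and *Plin5*, a lipid droplet protein of oxidative tissues (2.44 and 3.75). Their summits lay 8459 and 8379 bp from the nearest TSS of *Hdac3* and 7725 and 7478 bp from that of *Plin5*. Each region overlapped an RNAP2 region, and whether a TSS of another gene was nearer was not tested. BMAL1 regions were present in the windows of *Plin5* (2.98 and 2.40) and *Cd36*, a fatty acid transporter (2.48 and 2.40). Their summits lay 4518 and 4517 bp from the nearest TSS of *Plin5* and 255 and 587 bp from that of *Cd36*. None of the 38 genes had a site listed in 3 or more of the 4 lists of the clock factors.

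The genes with the most similar values over the 6 lists were found by the Euclidean distance of log2(1 + strongest −log10 p), over 21923 other protein-coding genes. They were *Mok* and *Klhl5* for *Ppara*, *Txnrd1* and *Ppp1cc* for *Ppard*, *Rbm34* and *Igf2* for *Ucp2*, *Ivns1abp* and *Gdf9* for *Ucp3*, *Abcc9* and *Ubn2* for *Pdk4*, *Larp4* and *Rbm5* for *Acsl1*, and *Pgpep1* and *Tnfrsf11b* for *Angptl4*. The distances ranged from 0.05 (*Ivns1abp*) to 0.42 (*Ppp1cc*), on a scale that rests on 6 lists of unequal length.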

How the data were processed

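ChIP-seq peaks of gastrocnemius muscle were analysed from 6 lists, 2 per factor. The submitters' processing notes name mm10, BWA 7.12, SAMtools and MACS2 2.1.1. According to the methods, the authors equalized read numbers between replicates by down-sampling, and peaks were called per replicate with input as the control and a p-value cutoff of 0.05. Used from the deposited columns were the fold enrichment over input at the summit, the −log10 p, the −log10 q and the summit offset. The deposited score equals the whole part of 10 times the −log10 p in every row and was not used. The paper gives the total reads of each list after down-sampling, which were close between replicates. The input sample has no list here, and read tracks were not used here. The number of reads at a single peak is therefore unknown, and no counting interval is given.

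No peak ran past a chromosome end of GRCm38, the build of the annotation (GENCODE M21), of the genome and of the RefSeq promoters. Peaks were merged when they shared 1 bp or more, and the background is the share of 21951 protein-coding genes that met the same rule. Both strands were searched for motif consensus sequences, over 300 bases at each summit or promoter (250 before the start and 50 after it, of which only the 250 are printed). DR1 and DR2 were also searched with up to 2 of their 12 half-site bases mismatched. Genes named are the 7, a gene whose TSS was nearer to a region's summit, pathway genes with a BMAL1 or REV-ERBα region in both replicates, and the 2 most alike genes of each. Outside this rule, *C2cd3*, *Pparg*, *Fabp4* and the cell type markers were named after their values were seen. The genes, the lists and the rules were chosen with earlier results of these data known. Alternatives were other windows, stricter thresholds, equal list lengths, a stricter overlap and leaving out each replicate. Python 3.11.15, numpy 2.4.6, pysam 0.24.0 and matplotlib 3.10.9 were used, and the code recovered the planted answers in 5 of 5 checks on simulated data.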

Additional observations from a re-analysis of the deposited data

How the results depend on the processing

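Counts of the 7 genes were recomputed under 73 alternatives, and 50 stayed within 1.5 times the main count. Part of these 50 could not have moved, because a stricter rule cannot lower a count of 0 and a looser one cannot raise a count of 7. RNAP2 regions in both replicates were left at 5 genes at a −log10 p of at least 3 and at 5 with lists of equal length, both times without *Ucp2* and *Angptl4*. At a −log10 q of at least 1.3 they were left at 3, as in RNAP2 replicate 2 alone (3), and under the other alternatives run the count was 7. BMAL1 regions fell from 1 gene to 0 within 1 kb of a TSS, at a −log10 p of at least 3 and at a −log10 q of at least 1.3. Without BMAL1 replicate 1, 7 genes had a BMAL1 peak, and without replicate 2, 3 genes had one. For REV-ERBα the counts were 3 without replicate 1 and 4 without replicate 2, against 0 with both required, and that 0 also held with windows of 50 kb. Within 1 kb of a TSS, BMAL1 replicates 1 and 2 were left with 0 and 2 genes and REV-ERBα replicates 1 and 2 with 2 and 0. At a −log10 p of at least 3, BMAL1 replicates 1 and 2 and REV-ERBα replicate 1 were each left with 1 gene. At a −log10 q of at least 1.3 the BMAL1 lists and REV-ERBα replicate 1 were left with 0 genes, and REV-ERBα replicate 2 with 1. Windows of 50 kb raised BMAL1 replicate 1 and REV-ERBα replicate 2 to 5 genes each. With lists of equal length (28881 peaks, ties in a seeded order), BMAL1 replicate 2 was left with 3 genes. Sites in at least 3 of the 4 lists stayed at 0 genes under each alternative run, but only the windows of 50 kb could have raised that count. No paired analysis was possible because no result comes from a test.

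The lenient lists, whose commonest values are shared by 20.7% to 31% of peaks, limit what a single peak shows: a peak listed in 1 replicate alone was not detectable in the other at its cutoff, and absence of a peak is not absence of binding.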
